A study of Mus musculus with 25 samples.

Results

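The contacts described here are those of 6 genes of mouse fibroblasts: Col1a1, Fn1, Thy1, Pdgfrb, Vim and S100a4. Each gene was followed through the 10 kb bin that carries its name in the gene annotation the authors deposited, 1 bin per gene, and every bin pair with an end in such a bin was taken from all 9 interaction lists. The 6 bins are a small part of the 144091 bins with a contact in any list. On mm10 they run from 94930001 to 94940000 on chromosome 11 for Col1a1, from 71650001 to 71660000 on chromosome 1 for Fn1, and from 44040001 to 44050000 on chromosome 9 for Thy1. The bin of Pdgfrb runs from 61040001 to 61050000 on chromosome 18, that of Vim from 13570001 to 13580000 on chromosome 2, and that of S100a4 from 90600001 to 90610000 on chromosome 3. The authors also name Apol7d in the bin of Fn1 and S100a5 in the bin of S100a4, so contacts of these bins cannot be given to 1 gene.

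Fibroblasts build and hold the connective tissue, and the 6 genes cover that work. Col1a1 encodes a chain of type I collagen and Fn1 encodes fibronectin, both secreted into the extracellular matrix. Thy1 (CD90) is a glycoprotein of the cell surface and Pdgfrb a receptor tyrosine kinase for platelet-derived growth factor. Vim encodes vimentin, the intermediate filament protein of mesenchymal cells, and S100a4 a calcium-binding protein of the S100 family. When fibroblasts are reprogrammed to pluripotency, the fibroblast genes are shut down while pluripotency genes are turned on. Active promoters and enhancers carry acetylation of histone H3 at lysine 27 (H3K27ac), and an enhancer can lie far from the promoter it contacts.

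The study mapped such contacts with HiChIP, in which DNA ends lying close together in the nucleus are ligated and the fragments are then precipitated with an antibody, and with Hi-C, which needs no antibody. H3K27ac HiChIP was made from mouse embryonic fibroblasts (MEF, 2 libraries), from V6.5 embryonic stem (ES) cells in 2i medium (2), and from V6.5 cells labelled TKO, also in 2i, without doxycycline (0 h, 3) and after 24 h of it (3). What TKO stands for is not given in the labels. KLF4 HiChIP was made from reprogramming cells at day 3 (3), in bulk, and day 6 (4), sorted for the surface marker SSEA1, and from ES cells in 2i (4). Hi-C was made from MEF (2) and from ES cells in 2i (2). All MEF, and the day 3 and day 6 cells derived from them with doxycycline and ascorbic acid, came from embryos heterozygous for an Oct4-GFP reporter, an inducible OKSM cassette (Oct4, Klf4, Sox2 and c-Myc) and the transactivator rtTA3; uninduced MEF were collected at passage 3. The series' design text gives the genotype as Rosa26-M2rtTA/Col1a1-OKSM, which places the cassette at 1 of the 6 loci. At Col1a1, therefore, the cassette and the cell type cannot be told apart between MEF and ES cells. Nothing in the labels says that the HiChIP or Hi-C libraries of a group came from separate cultures or animals, so the tests measure the spread between libraries only.

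Between 48.7 and 181 M contacts were counted in each HiChIP library (M is 1e6), and the totals of ES H3K27ac (166 and 168 M) were above those of MEF H3K27ac (75.0 and 105.2 M). The total depth of the Hi-C libraries is unknown. A list holds contacts that passed the authors' limits, which for the p-value was 0.1 in the HiChIP lists and 0.01 in the Hi-C lists, and a contact that is not listed can have any value under those limits. HiChIP strength is the authors' CPM, the count per M contacts of the same chromosome. Several libraries agreed within sampling noise (chi-square p of 0.0475 or more) and were counted as 1 replicate: replicates 1 and 2, and 3 and 4, of ES KLF4, replicates 2 and 3 of TKO at 0 h, and replicates 1 and 3 of TKO at 24 h. The cell labels were set against marker bins in the H3K27ac lists. The 12 of 14 pluripotency markers with an annotated bin had 2 contacts in MEF and 170 in ES, and 12 of 12 had more in ES. The 6 fibroblast genes together had 37 in MEF and 8 in ES, and 5 of 6 had more in MEF. They are the genes of this report and not a separate check. Of all bins with a gene name, 64.2% had more in ES and 15.3% more in MEF. A marker has a bin only where the TKO lists name it, and TKO cells are V6.5 cells like the ES cells. Of the other lists, the epithelial bins of Cdh1, Krt8 and Krt18 had 8 in MEF and 20 in ES, that of the endothelial marker Pecam1 had 1 and 2, and that of the blood marker Cd52 had 0 and 3.

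Promoter sequences in RefSeq (GRCm38.p6, the assembly behind mm10) were at hand for 2 of the 6 genes, Vim and S100a4, whose KLF4 contacts at day 3 are given further on. The 250 bases upstream of each start are shown, on the plus strand, from chr2:13574061-13574310 for Vim and from chr3:90603520-90603769 for S100a4. Capitals mark the match to the KLF motif searched, GGGNGTG, which in Vim lies on the opposite strand at bases -126 to -120 before the start.

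Vim: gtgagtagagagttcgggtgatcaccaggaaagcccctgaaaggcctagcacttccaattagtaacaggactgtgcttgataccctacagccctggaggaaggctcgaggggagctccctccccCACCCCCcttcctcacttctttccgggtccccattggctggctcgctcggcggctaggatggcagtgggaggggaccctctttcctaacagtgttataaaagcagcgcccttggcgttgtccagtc

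S100a4: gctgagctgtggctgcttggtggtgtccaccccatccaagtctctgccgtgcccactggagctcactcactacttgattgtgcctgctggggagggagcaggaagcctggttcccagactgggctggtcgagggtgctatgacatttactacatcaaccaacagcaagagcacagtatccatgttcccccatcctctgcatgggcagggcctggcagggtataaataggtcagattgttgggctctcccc

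The S100a4 stretch held no match on either strand to this motif, and neither stretch held one to the AP-1 motif TGANTCA, the TEAD motif GGAATG or the SP motif GGGGCGGGG. Of 32851 RefSeq promoter windows of the same 250 bases, 26.1% held the KLF motif, 6.75% the AP-1 motif, 12.6% the TEAD motif and 10.4% the SP motif. A match is a matter of letters and was not set against a binding site.

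In the H3K27ac list of MEF, 5 of the 6 fibroblast genes had more contacts than the median gene bin, which had 1. Thy1 had 9 contacts there, Col1a1 and Vim 8 each, Pdgfrb 7, S100a4 4 and Fn1 1, for a sum of 37. The gene names come from the TKO lists, so named bins are mostly bins with a contact in TKO cells. Of the 10485 bins that carry a gene name, 56.3% had any contact in that list, and 2.89% had as many as Thy1. As many as Col1a1 or Vim were found at 4.22% of gene bins, as many as Pdgfrb at 6.12%, and as many as S100a4 at 18.6%. In the H3K27ac list of ES, where 80.3% of gene bins had a contact and the median was 3, Thy1, Col1a1 and Vim had 0, Pdgfrb 1 and S100a4 2. Fn1 went the other way, with 5 contacts in ES, 7 in TKO at 0 h and 5 at 24 h. TKO cells had 16 contacts of the 6 bins at 0 h and 10 at 24 h, and Fn1 had the most of the 6 at both times. The whole TKO lists held 93248 contacts at 0 h and 84256 at 24 h. Of all gene bins, 47.8% had more at 0 h and 23.9% more at 24 h.

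KLF4 contacts were few. At day 3 there were 9, of which Vim had 5, S100a4 3 and Thy1 1. At day 6 there were 0, in a list of 4047 contacts that reached 12.1% of gene bins. In ES there were again 9, of which Col1a1 and Fn1 had 3 each, S100a4 2 and Thy1 1, while Vim had 0. Pdgfrb had 0 in all 3 KLF4 lists. Hi-C listed 26 contacts in MEF and 43 in ES. Most of the difference came from S100a4, with 4 and 17, and Pdgfrb, with 6 and 13, whereas Vim had 4 and 0 and Fn1 2 and 0. The whole Hi-C lists held 228083 contacts in MEF and 318622 in ES. Of all gene bins, 72.8% had more Hi-C contacts in ES and 12.3% more in MEF. A number of contacts comes from 1 list per group and has no replicate check.

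**Figure D1:**
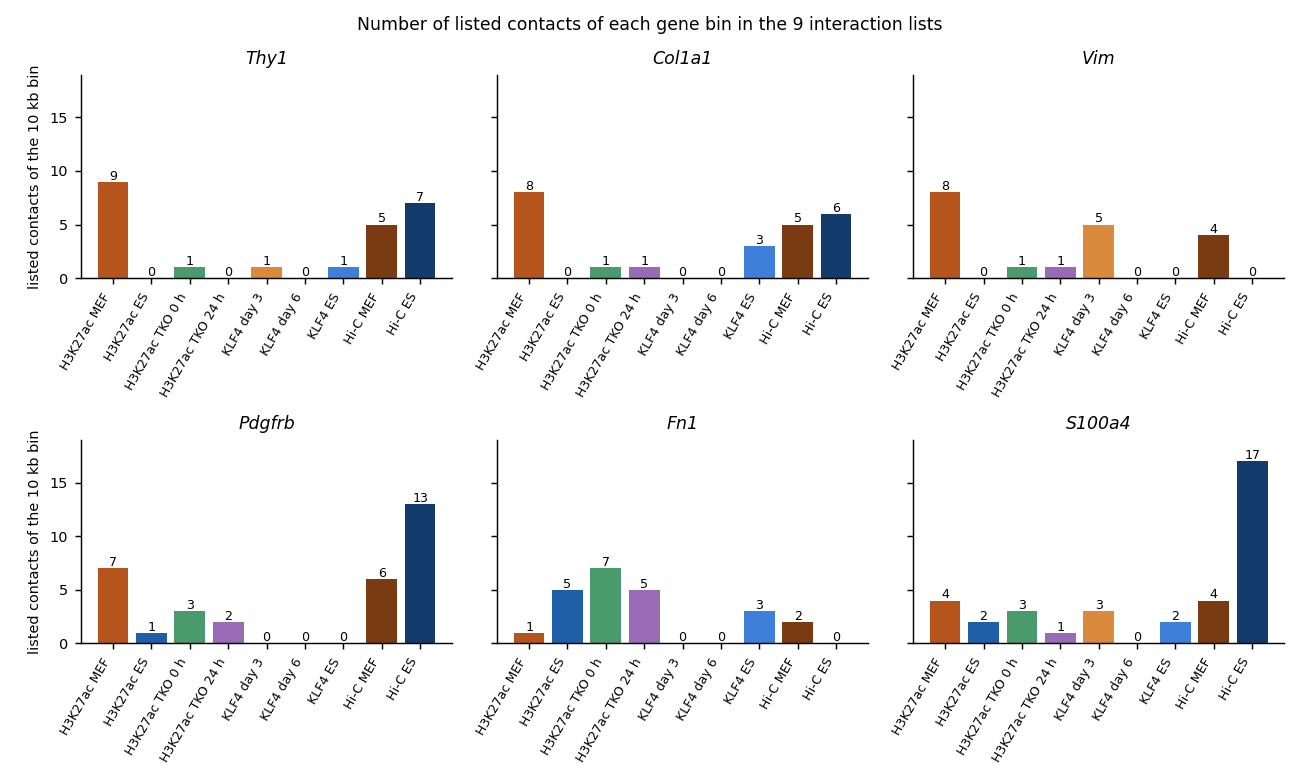
Number of listed contacts of each gene's 10 kb bin (vertical axis) in the 9 interaction lists (horizontal axis), 1 panel per gene, with the number above each bar. Thy1, Col1a1, Vim and Pdgfrb have their highest HiChIP bar in MEF H3K27ac, at 9, 8, 8 and 7 contacts, whereas Fn1 has 1 there and 7 in TKO at 0 h.

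In MEF the H3K27ac contacts lay close to the genes. The 37 contacts spanned 10 to 180 kb, with a median of 30 kb, and mean strengths of 3.58 to 16.8 CPM. Each of the 37 partners lay in the same topologically associating domain as its gene in the authors' domain lists of MEF and of ES. These domains were 320 to 3720 kb long, more than any of the contacts spanned, and the same share over all contacts was not computed. Set against contacts of the same list, chromosome and distance, 29 of the 37 were above the median. The authors' FDR was under 0.1 for 6 of them, so most passed on the unadjusted p-value alone. By RefSeq, 16 of the 37 partner bins held no protein-coding gene. Neither this share nor that under the FDR limit was computed over all contacts. Counting the contact with the gene itself, the partner bins had a median of 7 contacts in MEF H3K27ac and 0 in ES, and 35 of 37 had more in MEF. These bins were picked from the MEF list, so each had a contact there by choice, and the 2 numbers are not an even comparison. Below, a partner is placed by its distance from the gene's bin, negative toward lower coordinates, and strengths are given per library in replicate order.

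Col1a1, on chromosome 11 from 94936224 to 94953042, had the strongest contact of the 6 genes in MEF H3K27ac. Its next bin at -10 kb had 16.7 and 16.9 CPM, a mean of 16.8 ± 0.150 (SD, n = 2). The bin at -20 kb had 12.98 and 16.9. Beyond a weak stretch at -30 kb (4.50 and 5.02 CPM) and -40 kb, where the means were 4.76 CPM each, strength was high again over A430060F13Rik, a non-coding transcript in RefSeq. There the bin at -60 kb had 14.04 and 13.00 CPM, at the 99.1 percentile of contacts of that distance on the chromosome, and the bin at -50 kb had 11.4 and 13.2. Inside the gene body, the bin at 10 kb had 9.80 and 14.7 and the bin at 20 kb 4.50 and 6.13. Of the 28 possible pairs among the 8 partners, 21 were themselves listed in MEF and 0 in ES. Here and for the genes below, the partners were picked from the MEF list alone. The pair numbers of MEF and ES are therefore a description and not an even comparison.

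Fn1, from 71585473 to 71653280 on chromosome 1, had 1 weak contact in MEF, at 100 kb over Gm30160, with 3.09 and 4.08 CPM. ES cells listed 5 contacts of its bin. The strongest was with the neighbouring bin of the gene body at -10 kb, at 22.1 and 21.9 CPM, and stood at the 98.2 percentile of contacts of its distance on the chromosome. Outside the gene, the bin at 20 kb had 9.82 and 10.1 CPM and the bin at 10 kb, over Apol7d, 8.32 and 8.74. Further into the gene body, the bin at -20 kb had 5.07 and 4.88 and the bin at -40 kb 3.56 and 4.41. None of these 5 contacts was listed in MEF.

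At Thy1, which spans 44043384 to 44048579 on chromosome 9, the partners formed an unbroken run from -60 to 30 kb. The strongest was the far end at -60 kb, with 9.02 and 11.5 CPM. That contact stood at the 97.96 percentile of its distance, and its partner bin had 14 H3K27ac contacts in MEF and 0 in ES. The bins at 10 and 20 kb followed, with 9.55 and 9.03 CPM and 8.49 and 8.66. Strength between the gene and the far end was lower, with means of 4.35 to 7.44 CPM. There the bin at -50 kb had 5.84 and 9.03 CPM, the highest of its distance on the chromosome, and the bin at -40 kb 4.24 and 6.40. Of the partners, 7 of 9 held no protein-coding gene, and the bins at 20 and 30 kb touched Usp2, a ubiquitin-specific protease. Among 36 pairs of partners, 21 were listed in MEF and 2 in ES.

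Pdgfrb lies on chromosome 18 from 61045127 to 61085067, and its bins at 10, 20 and 30 kb are gene body. The 20 kb bin had 8.97 and 11.5 CPM in MEF and the 10 kb bin 8.25 and 11.2. On the other side, the bin at -50 kb had 6.82 and 8.17 CPM and the bin at -60 kb 6.10 and 6.12. They lie over Slc6a7, a proline transporter of neurons, and over Camk2a, a calcium-dependent kinase. Contacts at -40 kb (3.95 and 5.36 CPM) and -30 kb (4.31 and 5.36 CPM) were weaker. The partners were less connected among themselves than those of Thy1 or Col1a1, with 5 of 21 pairs listed in MEF and 3 in ES, a difference that was not tested.

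Vim (13574311 to 13582826 on chromosome 2) contacted bins of lower coordinates only, in 8 of 8 contacts, and its domain in MEF ends at 13600000. Nearby, the bin at -20 kb had 8.63 and 11.9 CPM and the bin at -10 kb 7.39 and 10.8. A separate group of partners lay at -160 to -180 kb over Cubn, which encodes an endocytic receptor. Within it, the bin at -170 kb had 8.63 and 10.3 CPM and the bin at -160 kb 8.27 and 9.25. The list held few contacts of that length on the chromosome, 2 at 170 kb and 8 at 160 kb, and those of Vim were the strongest at both distances. The authors' FDR was under 0.1 for these 2 contacts and for no other of Vim. Partner bins at -30 kb (4.75 and 5.38 CPM) and -50 kb (4.05 and 5.25 CPM) touch Trdmt1, a transfer RNA methyltransferase. Of 28 pairs of partners, 20 were listed in MEF and 0 in ES, and none of the 8 partner bins had a contact in the ES list.

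S100a4, at 90603770 to 90606045 on chromosome 3, sits in a cluster of S100 genes, and its 4 partners were neighbours in that cluster. The bin at -20 kb, over S100a3, had 13.6 and 17.1 CPM and stood at the 99.9 percentile of its distance. The bin at -10 kb, over S100a3 and S100a2, had 8.39 and 13.2 CPM, and the bin at 10 kb, over S100a5 and S100a6, 9.19 and 11.6. Both MEF libraries had all 3 contacts above 8 CPM, with replicate 2 the higher each time. Of the 6 pairs of partners, 5 were listed in MEF and 1 in ES.

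**Figure D2:**
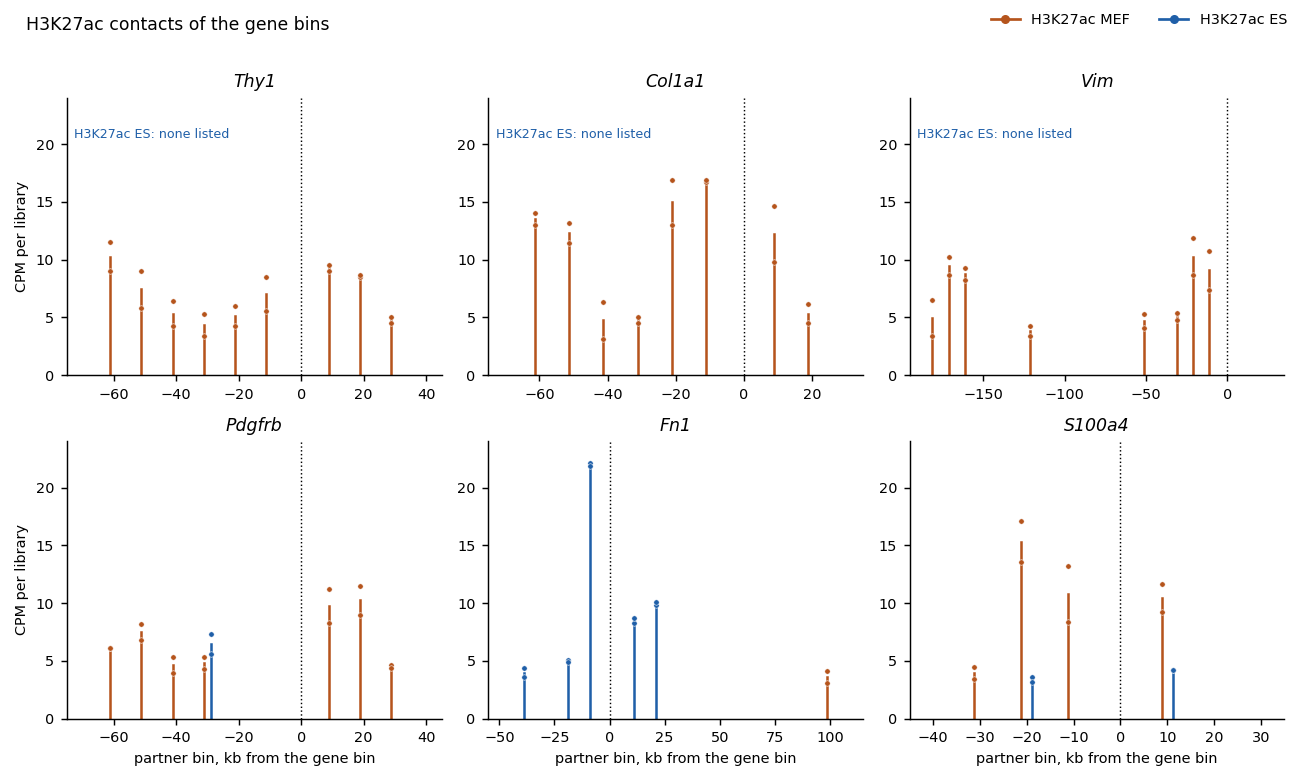
Strength in CPM (vertical axis) of every listed H3K27ac contact of the 6 gene bins against the distance of the partner bin in kb (horizontal axis; 0, dotted, is the gene's bin) in MEF (orange-brown) and ES (blue). Points are libraries, 2 per group, and the stem ends at their mean; Thy1, Col1a1 and Vim have stems in MEF alone, Fn1 has 5 in ES, and the S100a4 contacts at -20 and 10 kb are lower in ES than in MEF in each library.

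Reprogramming takes MEF toward an ES-like state, and the H3K27ac lists of MEF and ES were set side by side for these genes. Of the 37 MEF contacts, 3 were also listed in ES, 8.11% (95% Wilson interval 2.80 to 21.3, counting error only), beside 29.4% of all MEF contacts. They were 37.5% of the 8 contacts of these genes in ES, beside 23.7% of the whole ES list. These 3 were the contacts in both lists that could be tested, and 2 of them were called at an adjusted p under 0.05, where 32% of all 17901 common contacts were called, 17.6% higher and 14.4% lower in ES. The CPM values of MEF and ES did not overlap in 3 of 3, against 63.5% of common contacts. The Wilson interval, here and below, takes the contacts as independent. The 37 came from 6 bins, and the bins of Thy1, Col1a1 and Vim, with 9, 8 and 8 of them, had 0 contacts in ES. The interval does not count this dependence and is likely too narrow.

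Both called contacts belonged to S100a4 and were weaker in ES. At -20 kb the MEF libraries had 13.6 and 17.1 CPM and the ES libraries 3.59 and 3.18, so that each MEF value was more than 3 times each ES value. In edgeR's quasi-likelihood test it fell (log2 change -2.64, SE 0.193, adjusted p = 3.75e-16). At 10 kb the values were 9.19 and 11.6 in MEF and 4.21 and 4.21 in ES, again without overlap. This contact fell too (log2 change -1.77, SE 0.199, adjusted p = 3.74e-10 by edgeR). The third was the Pdgfrb contact at -30 kb, over Slc6a7 and Cdx1, a homeobox gene of gut and embryo, with 4.31 and 5.36 CPM in MEF and 7.28 and 5.55 in ES. By CPM the groups did not overlap, but CPM is scaled per chromosome and the test per library with TMM factors. No call was found by edgeR (log2 change 0.06, SE 0.275, adjusted p = 0.905). On library totals without TMM factors the log2 change of this Pdgfrb contact was 0.31, also without a call. The 34 other MEF contacts and the 5 other ES contacts were in 1 list alone and were not tested. With library totals and no TMM factors the split of all calls moved from 3152 higher and 2569 lower in ES to 4831 and 1426, and the median of all log2 changes from -0.04 to 0.21. The S100a4 calls stood under that scaling as well.

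KLF4 HiChIP shows where the reprogramming factor KLF4 sits at contacts. At day 3, when cells had carried the induced factors for 3 days, 8 of the 9 contacts of the fibroblast genes were also listed in MEF H3K27ac. That is 88.9% of the day 3 contacts, beside 46.0% of the whole day 3 list, and 21.6% (11.4 to 37.2) of the 37 MEF contacts, beside 17.9% of all MEF contacts. In ES 4 of 9 were listed in MEF H3K27ac, 44.4% beside 36.2% of the ES KLF4 list.

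Vim had the strongest of them. Its day 3 contacts ran through every bin from -10 to -50 kb, and the bin at -20 kb had 14.96, 11.1 and 7.86 CPM. That contact was the strongest of its distance on the chromosome in the day 3 list, although its 3 libraries were far apart. The bin at -30 kb over Trdmt1 had 6.998, 5.97 and 5.68 CPM and the bin at -10 kb 5.79, 7.42 and 5.38. The distant group over Cubn that MEF H3K27ac showed was not listed with KLF4. ES listed 0 KLF4 contacts of Vim, so none could be tested.

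S100a4 had 3 KLF4 contacts at day 3, with the same partners that were strongest in MEF H3K27ac, and 2 of them were also listed in ES. At -20 kb day 3 had 6.21, 7.73 and 5.04 CPM and ES 3.80, 3.51, 3.23 and 2.87. The groups did not overlap, and the contact was lower in ES (log2 change -1.07, SE 0.225, adjusted p = 4.34e-04 by edgeR). The contact at -10 kb, with 5.40, 6.50 and 4.62 CPM, was listed at day 3 alone. At 10 kb day 3 had 7.83, 8.96 and 7.10 CPM and ES 5.70, 5.42, 5.59 and 5.10, again without overlap (log2 change -0.70, SE 0.207, adjusted p = 0.0190 by edgeR). Common KLF4 contacts were called at a share of 7.2%, with 3.02% higher and 4.18% lower in ES, and their values did not overlap in 14.1%; here 2 of 3 were called and 2 of 3 did not overlap. The call at -20 kb was lost with DESeq2 (adjusted p = 0.0704), and the call at 10 kb in 5 of 12 alternatives, among them DESeq2 (0.296), library totals alone (0.0832), and leaving out day 3 replicate 2 (0.109) or replicate 3 (0.105), the last 3 by edgeR.

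The third common contact joined Thy1 to the bin at 20 kb over Usp2, which MEF H3K27ac listed too. Day 3 had 4.78, 4.48 and 5.06 CPM and ES 3.49, 4.42, 4.31 and 5.85, with overlapping values and no call (log2 change -0.06, SE 0.237, adjusted p = 0.932 by edgeR). Col1a1 had KLF4 contacts in ES alone. They were weak, with 3.16, 3.56, 3.68 and 3.68 CPM at -30 kb, 4.42, 3.21, 2.45 and 3.86 at 40 kb over Sgca, a muscle sarcoglycan, and 3.58, 3.92, 2.94 and 2.21 at -70 kb. Fn1 also had KLF4 contacts in ES alone, with partners that H3K27ac listed there. The bin at -10 kb had 5.67, 4.51, 6.48 and 6.20 CPM, the bin at 10 kb 5.22, 3.01, 5.80 and 4.55 and the bin at 20 kb 3.73, 3.01, 3.07 and 4.93.

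**Figure D3:**
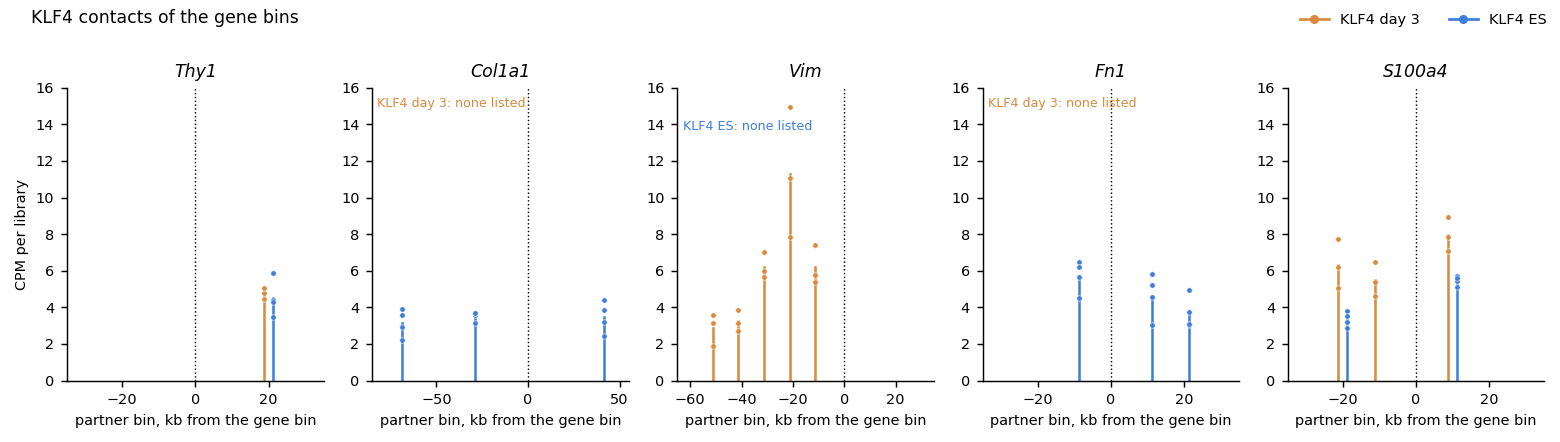
Strength in CPM (vertical axis) of the KLF4 contacts of 5 gene bins at day 3 (orange, 3 libraries) and in ES (blue, 4 libraries) against the distance of the partner bin in kb (horizontal axis; 0, dotted, is the gene's bin); points are libraries and stems end at their mean. Vim has 5 contacts at day 3 alone, Col1a1 and Fn1 have 3 each in ES alone, and Pdgfrb, with 0 in both, has no panel.

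The TKO groups differed by 24 h of doxycycline. Fn1 held the strongest contacts of the 6 genes at both times, and its main contact weakened. Between the Fn1 bin and the gene-body bin at -10 kb the strength was 27.8, 30.8 and 31.3 CPM at 0 h and 14.8, 17.3 and 17.6 at 24 h. Every 0 h library was more than 1.5 times every 24 h library, and the contact fell (log2 change -0.71, SE 0.118, adjusted p = 1.39e-06 by edgeR). It was the only call among 9 contacts of the fibroblast genes listed at both times, where 2.62% of all 67728 common contacts were called, with 0.576% higher and 2.04% lower at 24 h. The call was kept in 12 of 12 alternative fits.

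The other Fn1 contacts were also lower at 24 h by CPM, without a call. At 20 kb the libraries had 13.7, 14.2 and 15.4 CPM at 0 h and 7.99, 11.3 and 11.1 at 24 h (log2 change -0.36, SE 0.139, adjusted p = 0.162 by edgeR). At 10 kb, over Apol7d, they had 12.6, 14.9 and 13.5 against 7.23, 9.61 and 10.4 (log2 change -0.44, SE 0.144, adjusted p = 0.0652 by edgeR). At -20 kb they had 7.86, 8.53 and 10.4 against 4.76, 5.77 and 5.93 (log2 change -0.55, SE 0.177, adjusted p = 0.0603 by edgeR). The contacts at 10 and -20 kb were each called in 2 alternatives, 1 of them library totals alone, at adjusted p of 0.0167 and 0.0130 by edgeR. At -30 kb the values were 4.17, 6.40 and 4.38 against 3.996, 3.72 and 4.17 (log2 change -0.21, SE 0.217, adjusted p = 0.760 by edgeR). The 5 contacts share the Fn1 bin, which carried an H3K27ac peak at both times in the authors' annotation, and are not independent of each other.

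Across the 9 common contacts, values of the 2 times did not overlap in 8, against 21.1% of all common contacts. In 1 of the 8, Fn1 at -30 kb, the times were barely apart, with 4.169 CPM as the lowest at 0 h and 4.167 as the highest at 24 h. Of the 9, 7 had a log2 change below 0, and 5 of these were contacts of the Fn1 bin. The median log2 change of all common contacts was 0.007, and the share below 0 was not computed. Vim and S100a4 were above 0, and the S100a4 contact was the one that overlapped. Vim had 1 contact at both times, at -30 kb over Trdmt1, with 4.27, 3.14 and 4.002 CPM at 0 h and 5.45, 5.76 and 4.59 at 24 h, each 24 h library above each 0 h library, but not called (log2 change 0.58, SE 0.217, adjusted p = 0.140 by edgeR). S100a4 had the contact at -10 kb at both times, with 5.34, 5.06 and 5.17 against 6.40, 5.29 and 4.77 CPM (log2 change 0.16, SE 0.221, adjusted p = 0.841 by edgeR). Its contacts at -20 kb (3.05, 7.40 and 3.51 CPM) and 10 kb (5.65, 4.67 and 4.96) were listed at 0 h alone, the first with replicate 2 well above the others.

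Pdgfrb had a long contact at -200 kb over Tcof1, a nucleolar protein of ribosome production. It was 5.002, 4.16 and 4.08 CPM at 0 h and 4.05, 3.81 and 3.07 at 24 h (log2 change -0.20, SE 0.265, adjusted p = 0.862 by edgeR). Its contact at -30 kb over Slc6a7 and Cdx1, the one that MEF and ES also shared, had 8.25, 10.6 and 9.52 against 7.30, 7.07 and 7.50 CPM (log2 change -0.27, SE 0.227, adjusted p = 0.685 by edgeR). A contact at -10 kb was listed at 0 h alone, with 10.5, 8.01 and 11.6 CPM. For Thy1 the bin at -50 kb (4.25, 5.03 and 5.14 CPM) was listed at 0 h alone. Col1a1 had its bin at 20 kb (5.54, 6.31 and 3.59 CPM) at 0 h and its bin at -30 kb (4.99, 3.67 and 3.56 CPM) at 24 h. The bins of Thy1, Col1a1, Pdgfrb and S100a4 themselves carried no H3K27ac peak in the TKO annotation at either time, and each of their TKO contacts had a peak in the partner bin at the time it was listed. The partner bins of S100a4 at -20 and 10 kb carried a peak at 0 h alone. Of the 37 MEF contacts, 7 were listed in TKO cells at 0 h (18.9%, 9.48 to 34.2) and 4 at 24 h (10.8%, 4.29 to 24.7), beside 32.2% and 31.9% of all MEF contacts. They were 43.8% of 16 and 40% of 10 TKO contacts of these genes, beside 21.0% and 23.1% of the whole TKO lists. With 1 bin allowed at each end, the shares of the 37 MEF contacts listed in TKO cells were 59.5% and 32.4%. Over all MEF contacts they were 47.1% and 46.9%.

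**Figure D4:**
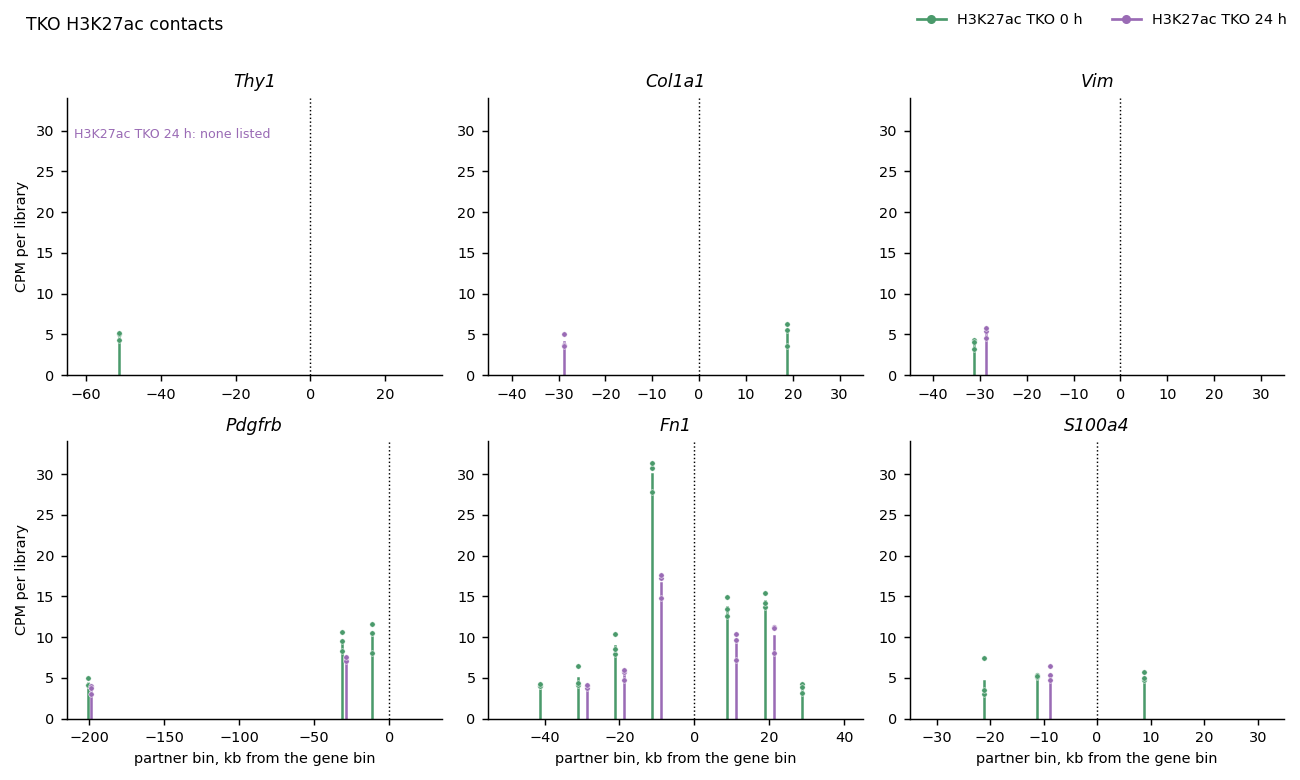
Strength in CPM (vertical axis) of the H3K27ac contacts of the 6 gene bins in TKO cells at 0 h (green) and 24 h (purple) of doxycycline against the distance of the partner bin in kb (horizontal axis; 0, dotted, is the gene's bin); points are libraries, 3 per time, and stems end at their mean. The Fn1 contact at -10 kb stands at 27.8 to 31.3 CPM at 0 h and 14.8 to 17.6 at 24 h.

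Hi-C does not select for a mark. Of the 37 MEF H3K27ac contacts, 18 were in the Hi-C list of MEF (48.6%, interval 33.4 to 64.1) and 20 in that of ES (54.1%, 38.4 to 69.0), beside 47.1% and 48.6% of all MEF H3K27ac contacts. As a share of the Hi-C contacts of these genes this was 69.2% of 26 in MEF and 46.5% of 43 in ES, beside 12.6% and 9.28% of the whole lists. Of the 15 contacts in both Hi-C lists 0 were called by edgeR, where the share of all common contacts called was 0.0322%, 40 of 124204 (0.0209% higher and 0.0113% lower in ES), and the DESeq2 test called 0 overall. At an unadjusted p under 0.05 there were 7544 of all contacts and 2 of the 15, both of Col1a1. Values of MEF and ES did not overlap in 3 of 15, against 36.1% of common contacts. Log2 changes of the 15 ran from -0.18 to 0.73.

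Hi-C values are the authors' signal, those of MEF against those of ES, which the header calls CPM but whose scale is not that of a contact total. Col1a1 and the bin at -60 kb, over A430060F13Rik, had 53.3 and 39.7 against 33.3 and 39.8 (log2 change -0.06, SE 0.236, adjusted p = 0.999 by edgeR). The bin at -50 kb had 31.8 and 19.9 against 29.1 and 41.6 (log2 change 0.73, SE 0.277, adjusted p = 0.619 by edgeR), the smallest adjusted p of the 15. Both are partners that H3K27ac listed in MEF and not in ES, and the lack of a Hi-C call does not show that they were alike. The bin at -70 kb had 24.1 and 19.9 against 26.95 and 30.3, without overlap (log2 change 0.67, SE 0.293, adjusted p = 0.748 by edgeR). In MEF alone the bin at -20 kb was listed, with 57.2 and 28.5. In ES alone the bins at 40 kb over Sgca (31.2 and 43.3) and -30 kb (31.2 and 35.5) were listed, both also KLF4 partners in ES.

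Thy1 shared the bins at -60, -50, -40 and 40 kb between the cell types. Its strongest H3K27ac partner, at -60 kb, had 17.9 and 26.2 against 25.7 and 17.8 (log2 change -0.13, SE 0.299, adjusted p = 0.999 by edgeR). The bin at -50 kb had 25.6 and 29.9 against 22.4 and 29.00, the bin at -40 kb 24.3 and 27.4 against 31.3 and 30.9, and the bin at 40 kb 23.05 and 29.9 against 26.9 and 28.1. Of these 4, the values at -40 kb alone did not overlap. The strongest Thy1 contact of each cell type was a neighbouring bin listed in that cell type alone. In MEF it was at 10 kb, with 53.8 and 52.3, and in ES at -10 kb, with 59.3 and 46.8. ES alone also listed -20 kb (34.7 and 47.7) and 30 kb over Usp2 (34.7 and 33.7).

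Pdgfrb shared 5 Hi-C contacts between the cell types, at -60, -50, -40, -30 and 20 kb, and the values of all 5 overlapped. At 20 kb, in the gene body, it had 50.6 and 40.1 against 55.9 and 45.6. The bin at -30 kb had 38.6 and 19.4 against 35.7 and 48.7, and the bin at -40 kb 35.9 and 15.5 against 46.4 and 33.5, with MEF replicate 2 the lowest in both. Further out, the bin at -50 kb had 25.3 and 31.05 against 27.3 and 35.5, and the bin at -60 kb 42.6 and 27.2 against 38.04 and 33.5. ES listed 8 further contacts of Pdgfrb, from -160 kb to 70 kb, the last over Csf1r, the receptor of a macrophage growth factor. The strongest of them were its neighbours at 10 kb (53.5 and 54.7) and -10 kb (45.2 and 53.7).

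S100a4 shared 3 Hi-C contacts, at -60, -20 and -10 kb. The bin at -20 kb, one of the contacts that fell in H3K27ac, had 50.4 and 51.6 against 44.7 and 66.4, which overlapped (log2 change -0.06, SE 0.232, adjusted p = 0.999 by edgeR). The strongest of all Hi-C contacts of the 6 genes was that of S100a4 at -10 kb, with 80.9 and 59.4 against 85.7 and 97.5, without overlap (log2 change 0.19, SE 0.217, adjusted p = 0.999 by edgeR). ES listed 14 further contacts from -110 to 70 kb. The strongest was at 10 kb over S100a5 and S100a6, with 60.9 and 74.99, the other contact that fell in H3K27ac. In MEF alone the bin at -100 kb over Chtop was listed, with 26.5 and 20.6.

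Vim had 4 Hi-C contacts, in MEF alone. The bin at -20 kb had 33.7 and 43.7, and the others over Cubn included -160 kb (16.2 and 29.2) and -180 kb (18.7 and 21.9). These 3 were also listed in MEF H3K27ac. The fourth, at -280 kb over Cubn and Gm13270, was not, and had 26.2 and 18.2. Fn1 had 2 weak Hi-C contacts in MEF alone, at 80 kb (20.4 and 23.5) and 90 kb (15.3 and 21.01). With the neighbouring bins included, Fn1 had 9 in MEF and 9 in ES, and Vim 4 and 0.

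**Figure D5:**
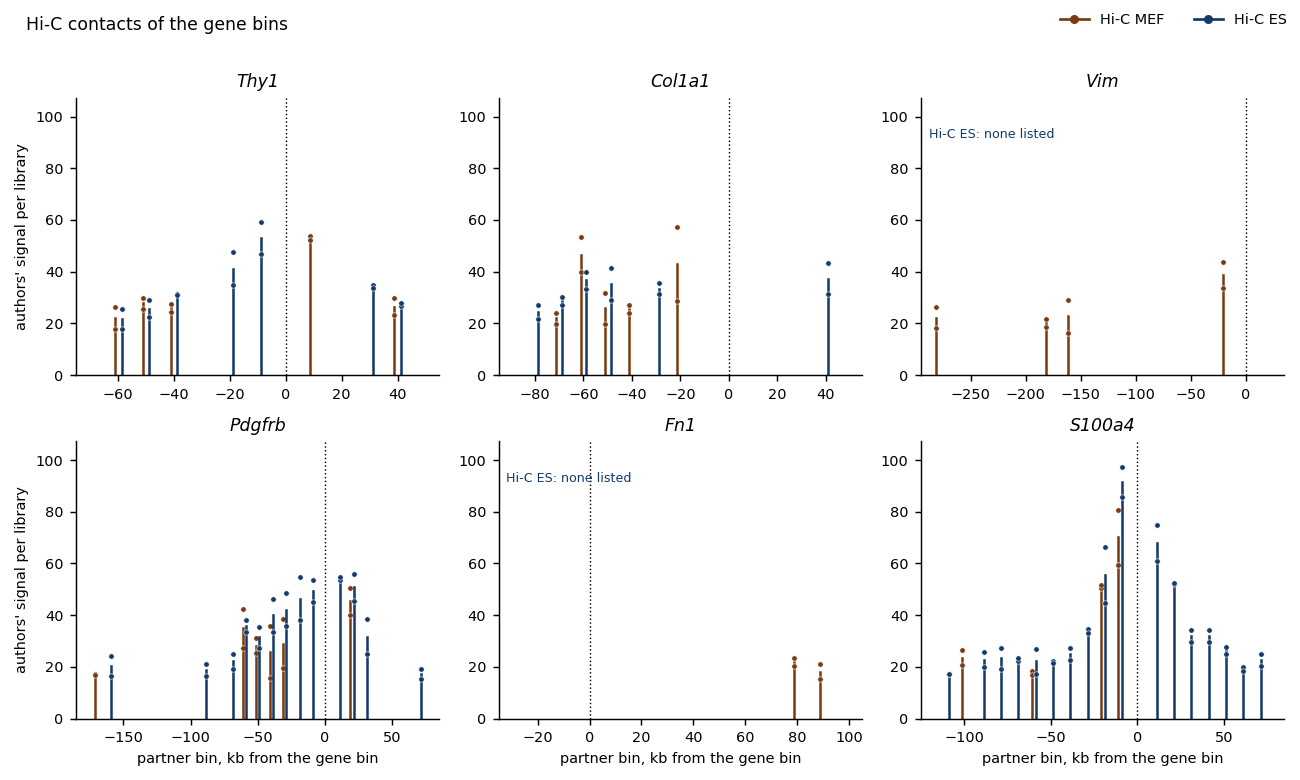
The authors' Hi-C signal (vertical axis, unitless scale of the deposited files) of every listed Hi-C contact of the 6 gene bins in MEF (brown) and ES (dark blue) against the distance of the partner bin in kb (horizontal axis; 0, dotted, is the gene's bin). Points are libraries, 2 per group, and stems end at their mean; S100a4 and Pdgfrb have 17 and 13 contacts in ES, and Vim and Fn1 have contacts in MEF alone.

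Other fibroblast and matrix genes were looked at as a list of 45, of which 36 could be placed in a bin, 17 by the authors' annotation and 19 by their RefSeq start. Col4a1 and Col4a2 share a bin. In H3K27ac, 28 of the 36 had more contacts in MEF, 3 had more in ES and 5 had as many, beside 15.3% of all gene bins with more in MEF and 64.2% with more in ES. The RefSeq placement can reach genes without a TKO contact, and with the authors' bins alone the numbers were 12 more in MEF, 3 more in ES and 2 equal of 17. The highest MEF numbers were 15 for Thbs2, a matrix thrombospondin, and 15 for Acta2, the smooth muscle actin of contractile fibroblasts, both with 0 in ES. S100a6 followed with 11 and 1. Col6a1, a collagen chain, and the matrix protein gene Tnc each had 10, with 0 in ES. The 3 with more in ES, named after their values were seen, were Itga5, the fibronectin receptor subunit, with 5 in MEF and 8 in ES, Eng with 3 and 6, and Timp1 with 7 and 14. KLF4 contacts were more numerous at day 3 for 15 of the 36 and in ES for 4, beside 16.3% and 38.7% of gene bins. Hi-C had more in MEF for 12 and in ES for 17, beside 12.3% and 72.8%. The shares over all gene bins come from the authors' bins. With those bins alone, KLF4 had more at day 3 for 9 of 17 and more in ES for 4. Hi-C then had more in MEF for 4 of 17 (23.5%) and more in ES for 10 (58.8%), nearer to all gene bins.

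Genes whose contact numbers over the 9 lists were most like those of a member were found by the distance between log2(number + 1) values, where 0 means equal numbers. Nearest to Vim was Tnc (distance 1.30), with 10 contacts in MEF H3K27ac, 0 in ES and 4 with KLF4 at day 3, and then Myo5a (1.65). Nearest to Thy1 were Baalc (1.08) and Jph2 (1.08), and to Col1a1 Gm15658 (0.888) and Lrrc8c (1.34). Pdgfrb was nearest to Gm15947 (0.802) and Lrp1 (0.919), Fn1 to Ccdc43 (0.717) and Plet1 (0.968), and S100a4 to Fam166b (1.01) and Soga1 (1.05). None of the 12 was another of the 6 genes.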

How the data were processed

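H3K27ac and KLF4 HiChIP, and Hi-C, had been made by the submitters in 25 libraries, sequenced after fixation with 1% formaldehyde, and turned into lists of contacts between 10 kb bins. The submitters' processing notes name mm10 and Bowtie2 2.2.3; the contact caller and the test behind its p-values are not given in the sources used here. Each list has, per the file headers, a count of contacts per library, the authors' CPM (per M contacts of that chromosome in HiChIP, which gave back whole contact totals in 20 of 20 chromosomes of each of the 21 libraries), a ratio to the expected count, and the authors' p-value and FDR. In the Hi-C files the column headed CPM did not give back whole totals and was read as a signal of unknown scale deposited by the authors. Domain files deposited by the authors carry a score that was not used for any value.

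The members, gene lists and alternatives were chosen with earlier results of these data known. A member is the bin named for the gene, and all of its contacts were counted. Values are printed for the 3 strongest contacts per gene and list, for those in 3 or more lists and for tested contacts named in the text, of the other fibroblast genes for the 4 with most MEF contacts and those tied (1 gene is not reported here), and for the 2 gene bins most alike per member. Libraries whose counts agreed by a chi-square test (p of 0.01 or more, a limit set after the p-values were seen) were joined as 1 replicate where other pairs of their group differed; the day 6 libraries all agreed, were not joined and entered no test. Contacts in both lists of a comparison were tested on counts with edgeR 4.0.16 in R 4.3.3 (filterByExpr, TMM, quasi-likelihood test, Benjamini-Hochberg adjustment, call at 0.05), with contact totals as library sizes. For Hi-C, sums over the common contacts took their place, a change made after a first fit. SE is the log2 change divided by the square root of F. Tables and figures were made with Python 3.11.15, pandas 2.3.3, numpy 2.4.6, scipy 1.17.1 and matplotlib 3.10.9. The fit was tested on simulated data. Alternatives were DESeq2 1.42.0, totals without TMM, no filter, separate libraries, a replicate block and leaving out each library. Day 6 lists 0 contacts of the 6 genes.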

Additional observations from a re-analysis of the deposited data

How the results depend on the processing

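The calls of S100a4 in H3K27ac were kept in 8 of 8 alternatives and that of Fn1 at -10 kb in 12 of 12, whereas the KLF4 calls of S100a4 at -20 and 10 kb were kept in 11 and 7 of 12. Calls over all contacts numbered 5721 in H3K27ac of MEF against ES, and 2396 with DESeq2, with 3333 to 4849 on leaving out 1 library. KLF4 gave 532, with 284 on totals alone, 64 with DESeq2 and 135 to 578 on leaving out 1, lowest without day 3 replicate 3 and more than 1.5 times lower also without day 3 replicates 1 (254) and 2 (256) and ES replicate 4 (322). TKO gave 1774, with 2825 on totals alone (155 higher and 2670 lower at 24 h), 105 with DESeq2 (104 lower and 1 higher) and 1028 to 1205 on leaving out 1. Hi-C gave 40, with 0 by DESeq2 and 3 to 113 on leaving out 1 (3 without MEF replicate 1, 10 without replicate 2, 113 without ES replicate 2). Joining TKO libraries at 0.05 gave 1894 and list totals for Hi-C 36, both alternatives added after the data were seen. The causes were not tested, beyond fewer libraries where 1 was left out.

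Same-numbered libraries did not deviate together, with correlations of -0.0583 to 0.0308, so a number was taken as a name. With the replicate block there were 5879 calls in H3K27ac, 335 in KLF4, 2024 in TKO and 74 in Hi-C. Under the block the KLF4 contact of S100a4 at 10 kb had an adjusted p of 0.0534 and the TKO contacts of Fn1 at -20 and 10 kb 0.0475 and 0.0358 by edgeR.

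Contacts at 2 or more times the lowest strength of the list numbered 20 in MEF H3K27ac, 4 in ES, 6 and 4 in TKO at 0 and 24 h, 5 in ES KLF4, and 8 and 24 in Hi-C of MEF and ES. At an authors' p-value under 0.01 there were 5 in ES H3K27ac, 9 in TKO at 0 h and 1 in ES KLF4. With the neighbouring bins included there were 73 and 19 in H3K27ac of MEF and ES, 40 and 25 in TKO, 14 and 18 in KLF4 at day 3 and in ES, and 71 and 126 in Hi-C. Allowing 1 bin at each end, the share of the 37 MEF contacts also listed was 59.5% and 32.4% for TKO and 43.2% for ES KLF4. Over all MEF contacts it was 47.1% and 46.9% for TKO and 30.9% for ES KLF4. For Hi-C of MEF and ES it was 94.6% and 75.7%, beside 81.1% and 77.2% over all. In exact bins, TKO at 0 h had 18.9% beside 32.2% and ES KLF4 10.8% beside 14.6%, so for both the order depended on the matching of bins.

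Signs of uncalled contacts changed on leaving out 1 library, with log2 changes of -0.17 to 0.27 for Pdgfrb at -30 kb in H3K27ac and -0.29 to 0.11 for Thy1 at 20 kb in KLF4. In Hi-C the ranges were -0.25 to 0.16 for Col1a1 at -60 kb, -0.37 to 0.25, -0.15 to 0.21 and -0.13 to 0.20 for Pdgfrb at -60, -50 and 20 kb, -0.19 to 0.37, -0.36 to 0.15 and -0.00725 to 0.41 for S100a4 at -60, -20 and -10 kb, and -0.39 to 0.19 and -0.21 to 0.19 for Thy1 at -60 and 40 kb. With 11 to 47 counts in the median contact of a library, a contact missing from a list was not detectable at its limits, which does not show that it was absent.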

Other observations

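At day 6 the KLF4 list of 4047 contacts held contacts of 4 of the 36 other fibroblast bins, beside 12.1% of all gene bins, a similar share. All 4 were named after their values were seen: 2 contacts for Thbs2 and 1 each for Col6a1, Acta2 and Timp1. At day 3 Timp1, an inhibitor of matrix proteases, had 10 KLF4 contacts, Thbs2 6, S100a6 5 and Tnc 4, beside 6, 1, 3 and 0 in ES. These genes were picked after their values were seen. The highest day 3 number was 11, at the bin of Col4a1 and Col4a2, beside 2 in ES. In the other direction went 4 genes: Sparc with 1 at day 3 and 6 in ES, Mmp14 with 1 and 4, Itga5 with 0 and 3, and Eng with 0 and 1. The epithelial bins of Cdh1, Krt8 and Krt18 together had 12 KLF4 contacts at day 3, 5 at day 6 and 17 in ES. The bin of S100a6 lies next to that of S100a4 and had 11 H3K27ac contacts in MEF, 1 in ES, and 8 and 18 Hi-C contacts in MEF and ES, the same order as S100a4 in both assays. Between the S100 bins contacts are shared, so their numbers are not independent.

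Of the 6 genes, Vim and Fn1 had 0 Hi-C contacts in ES, as had 7 of the 36 other fibroblast bins, whereas 89.4% of gene bins had at least 1 there. With the neighbouring bins included, Fn1 had 9 Hi-C contacts in ES and Vim still 0.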
